A study of Arabidopsis thaliana with 10 samples.

Results

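Levels of 10 senescence and chlorophyll breakdown genes were compared across 5 genotypes of Arabidopsis thaliana seedlings. The genes were taken by locus code from the 33297 rows of the deposited expression table: SEN1, ASN1 and DIN10, which respond to darkness and sugar shortage, SAG21 and BCB, which mark senescence and stress, the regulator ORE1, and NYE1, NYE2, NYC1 and PAO of chlorophyll breakdown. All 10 had a row, and 9 of the 10 passed the filter of at least 1 FPKM in at least 2 of the 5 columns, which kept 18912 rows. NYE2 did not pass.

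The seedlings were whole plants, 7 days old, grown on a cycle of 16 hours light to 8 hours dark and harvested at zeitgeber time 12. All grew at 23 °C on 1/2-strength MS medium with 0.8% agar. The genotypes were the wild type Col (spelled Colombia-0 in the labels), single T-DNA insertion mutants hda9 (SALK_007123), hos15-2 (SALK_064435, called hos15 here) and pwr (SALK_071811C), and the double mutant carrying the same hda9 and hos15-2 alleles. The labels name 2 libraries per genotype, but the table gives 1 FPKM value (fragments scaled to transcript length and to the size of the library) for each gene in each genotype, computed by the authors. There was thus no spread between replicates, no test was possible, whether genotypes overlap could not be judged, and sequencing depth is not known for any value. Each mutant is represented by 1 insertion allele per gene.

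Leaf senescence is the programmed last stage of leaf life, in which chlorophyll and protein are taken apart and their nitrogen is moved to growing organs. NAC transcription factors such as ORE1 drive it, and age, darkness, sugar shortage and stress hormones bring it on. Chlorophyll is dismantled by a fixed series of enzymes: NYC1 reduces chlorophyll b, NYE1 and NYE2 remove the magnesium, and PAO opens the ring. HDA9 removes acetyl groups from histones and works with PWR, which carries a SANT domain, and with HOS15, which is built of WD40 repeats. The design text describes them as members of 1 complex. HDA9 and PWR are known to promote leaf senescence.

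The mutated genes were checked first. HDA9 stood at 7.79 FPKM in wild-type Col, against 1.70 (hda9) and 1.76 (double), and PWR at 8.38 in Col and 2.18 in pwr. HOS15 lay below its Col level of 16.2 FPKM in every mutant: 2.16 (hos15) and 1.89 (double), but also 4.37 (hda9) and 3.17 (pwr), whose labels name no HOS15 mutation. On the log2 scale the HOS15 difference from Col was -2.44 (hos15), -2.57 (double), -1.68 (hda9) and -2.04 (pwr). Adjustment for the base composition and length of the transcript (sequence adjustment) put it at -1.35 (hos15) and -1.46 (double). In hda9 and pwr it became -0.36 and -0.36, under 2-fold. The HOS15 transcript holds 57.9% purine, and adjustment made the difference smaller in every mutant, those with the HOS15 insertion included. The whole-seedling label was checked against organ markers. Markers of green tissue were abundant, all 6 root markers passed the filter, and no seed or flower marker exceeded 0.317 FPKM in any column. Summed over 4 green tissue markers, the level was 36324 FPKM in Col, 50560 (hda9), 45768 (hos15), 59188 (pwr) and 52508 (double). The FPKM total of a column was also lowest in Col, at 955700, and highest in pwr, at 1326090. The median difference of the green markers from Col was 0.39, 0.27, 0.54 and 0.44 in the order hda9, hos15, pwr, double, and 0.05, 0.01, 0.19 and 0.13 after sequence adjustment. The part of tissue make-up in the values below was not tested, and in whole seedlings fewer cells of a type cannot be told apart from less RNA per cell.

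The sequences upstream of SEN1, SAG21, ASN1 and BCB are shown because these 4 members are the ones called in a mutant. They were read from the TAIR10.1 assembly and its RefSeq gene starts, 5′ to 3′ and ending just before the start. Capitals mark 3 motifs searched on both strands: the G-box CACGTG, bound by bZIP and bHLH factors, the W-box core TTGAC, bound by WRKY factors, and TATCCA, an element known from sugar-starved rice cells. SEN1 and BCB windows were shortened where a neighbouring gene begins.
SEN1, upstream of the annotated start (chr4:16944678-16944877, plus strand): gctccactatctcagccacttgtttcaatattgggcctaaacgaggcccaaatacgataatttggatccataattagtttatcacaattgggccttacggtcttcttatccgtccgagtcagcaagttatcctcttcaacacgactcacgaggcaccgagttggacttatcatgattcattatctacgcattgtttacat
SAG21, upstream of the annotated start (chr4:1047106-1047405, minus strand): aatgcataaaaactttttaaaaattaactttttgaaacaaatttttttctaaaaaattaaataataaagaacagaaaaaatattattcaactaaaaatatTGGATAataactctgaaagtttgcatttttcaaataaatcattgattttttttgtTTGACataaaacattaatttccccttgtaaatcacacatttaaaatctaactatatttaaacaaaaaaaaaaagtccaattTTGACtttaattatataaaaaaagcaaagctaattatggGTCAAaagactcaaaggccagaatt
ASN1, upstream of the annotated start (chr3:17441432-17441731, minus strand): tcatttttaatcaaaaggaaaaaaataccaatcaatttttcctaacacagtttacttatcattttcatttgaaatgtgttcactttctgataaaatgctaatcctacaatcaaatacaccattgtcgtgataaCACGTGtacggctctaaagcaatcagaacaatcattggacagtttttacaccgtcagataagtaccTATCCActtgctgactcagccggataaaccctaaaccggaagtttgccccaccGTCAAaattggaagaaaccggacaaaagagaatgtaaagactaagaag
BCB, upstream of the annotated start (chr5:6826113-6826364, plus strand): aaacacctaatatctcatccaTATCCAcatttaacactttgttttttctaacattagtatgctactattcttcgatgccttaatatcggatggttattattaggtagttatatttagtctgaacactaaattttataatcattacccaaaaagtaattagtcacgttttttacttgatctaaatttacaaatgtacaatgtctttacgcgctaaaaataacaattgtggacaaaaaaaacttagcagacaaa
None of the 3 motifs capitalised in these sequences overlaps another.

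ASN1 held 1 G-box, starting 167 bases before the gene, as did 7.09% of 27443 windows of that length before protein-coding genes. It also held 1 W-box core and 1 TATCCA. SAG21 held 3 W-box cores, starting 145, 64 and 25 bases before the gene, and as many or more were present in 5.07% of windows, while at least 1 was present in 50.4%. SAG21 and BCB each held 1 TATCCA, found in 16.2% of windows of 300 bases and 13.7% of windows of 252 bases. SEN1 held none of the 3 motifs in 200 bases, where 5.64%, 38.7% and 10.8% of windows hold the G-box, the W-box core and TATCCA. The ASN1 window includes part of the coding gene AT3G47341 on the other strand. A match in these letters describes the sequence and is not evidence of binding.

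**Figure D1:**
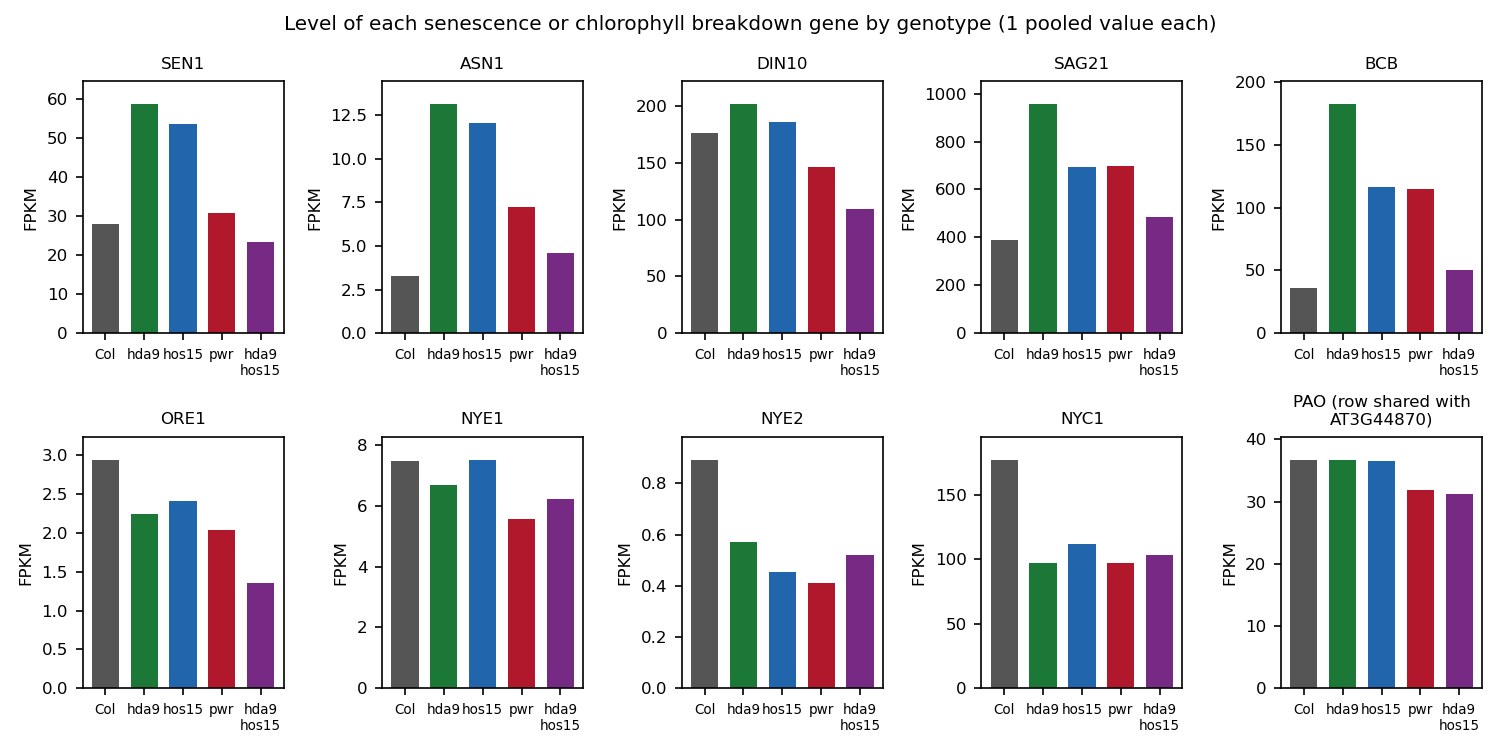
FPKM of the 10 genes (vertical axis, from 0, its own scale in each panel) in the 5 genotypes (horizontal axis), with 1 authors' value per bar and so no error bar. SEN1, ASN1, SAG21 and BCB peak in hda9 and come back towards Col in the double mutant, while the NYC1 bars of all 4 mutants lie below the Col value of 177 FPKM.

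Differences are given as mutant minus reference in log2(FPKM + 1), a scale that makes the fold of weak genes look smaller than it is, and a gene is called higher or lower when this reaches 1 (2-fold). Against Col, 4 of the 9 members were called in hda9 (SEN1, ASN1, SAG21 and BCB), 2 in hos15 (ASN1 and BCB), only BCB in pwr and 0 in the double mutant, all on the higher side. Over all 18912 rows the share called higher was 1.99% (hda9), 1.23% (hos15), 1.94% (pwr) and 1.49% (double), the share called lower 4.49%, 2.48%, 7.55% and 3.91%, and the share called either way 6.48%, 3.71%, 9.48% and 5.39%. The median difference of the 9 members was 0.19 (hda9), 0.08 (hos15), -0.20 (pwr) and -0.23 (double), and that of all rows -0.04, -0.01, -0.09 and -0.07. The 4 comparisons share the Col column and are not independent of each other. The differences from Col also varied over rows with transcript composition, which was read once per gene from the annotation. Base make-up (purine and GC content) and length of the transcript explained 29.1% to 42.7% of the variance of the differences from Col. The members' transcripts held 46.8% to 52.8% purine, and after removal of that trend no call changed among the 8 members for which it could be computed.

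**Figure D2:**
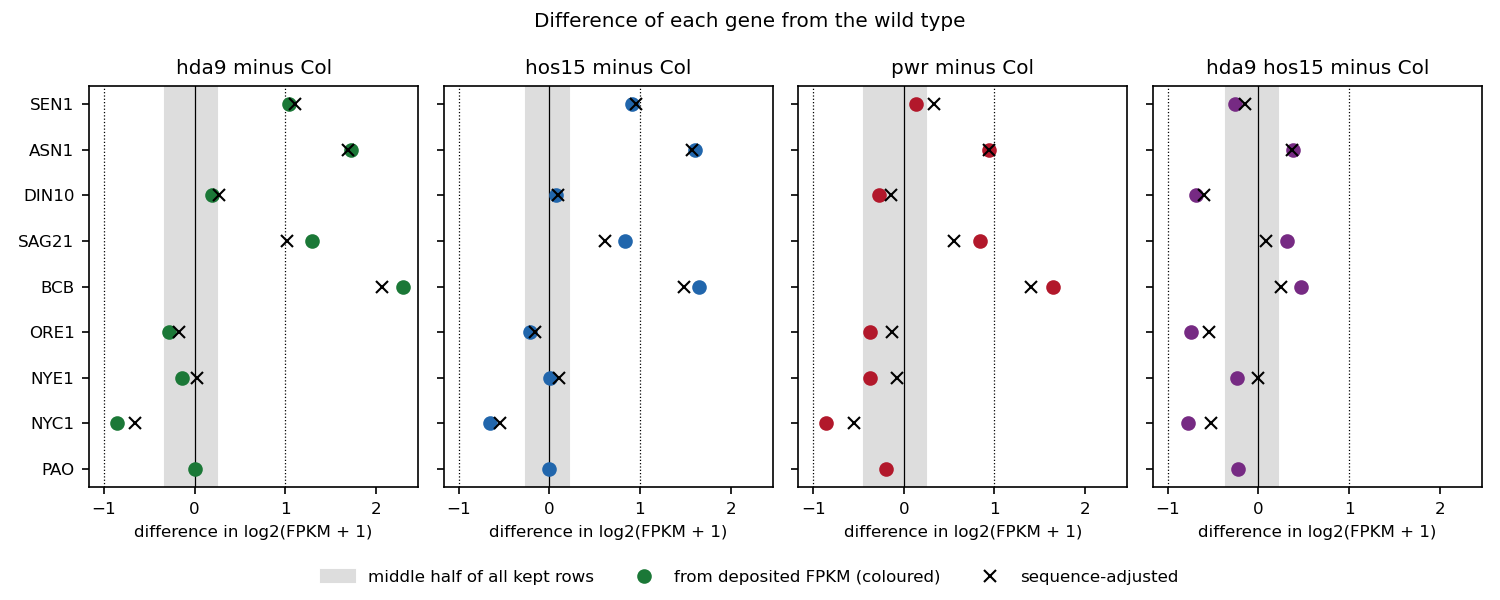
Difference of 9 genes from Col in log2(FPKM + 1) (horizontal axis) in each mutant, as circles from the deposited FPKM and crosses after sequence adjustment, with dotted lines at 2-fold and a grey band holding the middle 50% of all kept rows. BCB lies farthest to the right in hda9 at 2.30, and in the double mutant all 9 circles lie between -0.77 and 0.47.

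SEN1 (AT4G35770, chromosome 4), also called DIN1, is a classic dark-inducible marker of ageing leaves. It stood at 28.0 FPKM in wild-type Col and, in the mutants, at 58.7 (hda9), 53.7 (hos15), 30.9 (pwr) and 23.3 (double). The hda9 and hos15 values were high, pwr lay close to Col, and the double mutant lay below it. The difference from Col was 1.04 in hda9, past 2-fold, 0.92 in hos15, just short of it, 0.14 in pwr and -0.25 in the double mutant.

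ASN1 (AT3G47340, chromosome 3), or DIN6, encodes the asparagine synthetase that builds the nitrogen-transport amino acid asparagine in darkness and sugar shortage. It stood at 3.28 FPKM in wild-type Col and, in the mutants, at 13.1 (hda9), 12.1 (hos15), 7.21 (pwr) and 4.6 (double), the weakest of the 4 members with a call. The level in hos15 was 3.68 times that in Col, and hda9 lay slightly above hos15. On the log2 scale the differences were 1.72 in hda9 and 1.61 in hos15, with 0.94 in pwr and 0.39 in the double mutant. The 0.94 was short of a call, although the FPKM in pwr was 2.19 times that in Col. In pwr the call depended on scale: the difference was 1.03 with a pseudocount of 0.5, 1.11 with one of 0.1, 1.02 with median-ratio scaling and 1.25 with quantile normalization. Its gene overlaps the opposite-strand gene AT3G47341 by 11 bases, and no source used here says whether counting used the strand.

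DIN10 (AT5G20250, chromosome 5), of the raffinose synthase family, was the exception among the dark-responsive members. It stood at 177 FPKM in wild-type Col and, in the mutants, at 201 (hda9), 186 (hos15), 146 (pwr) and 109 (double). No mutant was 2-fold from Col, and the widest difference was -0.69 in the double mutant. DIN10 overlaps the opposite-strand gene AT5G20260 by 82 bases.

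SAG21 (AT4G02380, chromosome 4) encodes a small late-embryogenesis-abundant protein of mitochondria that is induced in early senescence and by oxidative stress. It was the most abundant member per transcript length, at 389 FPKM in wild-type Col and, in the mutants, at 955 (hda9), 694 (hos15), 698 (pwr) and 484 (double). Every mutant column lay above Col, hda9 by the most and the double mutant by the least. The difference was 1.29 in hda9, past 2-fold, and under it elsewhere, at 0.83 (hos15), 0.84 (pwr) and 0.31 (double). The hda9 value was 1.02 after sequence adjustment and 0.99, under 2-fold, with quantile normalization. SAG21 contains the annotated microRNA gene MIR2936 on the same strand, so reads of both cannot be told apart.

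BCB (AT5G20230, chromosome 5), the blue-copper-binding protein SAG14, is induced by wounding, oxidative stress and senescence. It stood at 36.2 FPKM in wild-type Col and, in the mutants, at 182 (hda9), 116 (hos15), 115 (pwr) and 50.5 (double). BCB had the widest range of all members, with the highest level 5.04 times the lowest. It was the only member called in all 3 single mutants on the log2(FPKM + 1) scale. The values were 2.30 in hda9, 1.66 in hos15 and 1.64 in pwr, against 0.47 in the double mutant. ASN1 missed a call only in pwr, where its FPKM was 2.19 times that of Col. All 3 BCB calls held after sequence adjustment, at 2.07, 1.49 and 1.4. Of all rows, 105 were higher in the 3 single mutants (0.555%), and 61 of these, BCB among them, were under 2-fold in the double mutant (0.323%).

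The regulator ORE1 (AT5G39610, chromosome 5, listed as NAC6 in the annotation) was not high in any mutant. It stood at 2.94 FPKM in wild-type Col and, in the mutants, at 2.24 (hda9), 2.40 (hos15), 2.03 (pwr) and 1.35 (double), the lowest level among the members that passed the filter. Each mutant value lay below Col. The difference in the double mutant was -0.75, short of a call, although the FPKM in Col was 2.18 times that in the double mutant. With a pseudocount of 0.1 the log2 difference was -1.07, past 2-fold.

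Among the chlorophyll breakdown enzymes, NYC1 (AT4G13250, chromosome 4) had the widest differences. It stood at 177 FPKM in wild-type Col and, in the mutants, at 97.6 (hda9), 112 (hos15), 97.6 (pwr) and 104 (double). The 4 mutant columns lay close together at 55.0% to 63.3% of Col. These were differences of -0.86, -0.66, -0.86 and -0.77, all under 2-fold, although quantile normalization put hda9, pwr and the double mutant past it at -1.13, -1.10 and -1.01. Sequence adjustment made the NYC1 differences smaller, at -0.66 (hda9), -0.54 (hos15), -0.55 (pwr) and -0.53 (double).

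NYE1 (AT4G22920, chromosome 4), or SGR1, whose product removes magnesium from chlorophyll a, stood at 7.48 FPKM in wild-type Col and, in the mutants, at 6.70 (hda9), 7.52 (hos15), 5.56 (pwr) and 6.23 (double). Its close relative NYE2 (AT4G11910, chromosome 4) was too weak to compare, at 0.893 FPKM in wild-type Col and, in the mutants, at 0.572 (hda9), 0.454 (hos15), 0.413 (pwr) and 0.521 (double). PAO (AT3G44880, chromosome 3), the oxygenase that opens the chlorophyll ring, stood at 36.7 FPKM in wild-type Col and, in the mutants, at 36.8 (hda9), 36.6 (hos15), 31.8 (pwr) and 31.2 (double). PAO had the narrowest range of all members, with the highest level 1.18 times the lowest. Its row is joined with the neighbouring gene AT3G44870, so its own level cannot be separated. NYE1 and PAO stayed under 2-fold in every comparison with Col.

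Next, hda9, hos15 and pwr were set against each other, since their proteins are described as partners. No member was 2-fold apart between hda9 and hos15, where 0.74% of all rows were called, between hda9 and pwr (0.925%) or between hos15 and pwr (1.2%). At such low shares, the lack of a call among so few members says little about how alike the single mutants are. The widest member differences were those of SEN1, at 0.91 between hda9 and pwr and 0.78 between hos15 and pwr. ASN1 differed by 0.78 and 0.67 in the same pairs. In contrast, SAG21 and BCB stood at nearly the same level in hos15 and pwr, with differences of -0.01 and 0.02. The pwr column therefore lay near Col for SEN1, between Col and the other single mutants for ASN1, and level with hos15 for SAG21 and BCB.

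The double mutant was set against each single mutant to see what losing both proteins added. For 7 of the 9 members it lay below each of the 3 single mutants, by any amount, as it did for 24.8% of all rows. PAO, a joined row, is among the 7 and lay only -0.03 from pwr. SEN1, ASN1 and BCB were past 2-fold lower than in hda9, at -1.30, -1.34 and -1.83, where 1.49% of all rows were called lower. The same 3 were past 2-fold lower than in hos15, at -1.17, -1.22 and -1.19, where 0.994% were. Against pwr only BCB was, at -1.17, where 0.598% of rows were. SAG21 stood at -0.98 against hda9, just short of 2-fold, and DIN10 at -0.87. NYC1 differed by 0.09 from hda9 and -0.11 from hos15. These comparisons do not use the Col column, but all 3 share the single value of the double mutant and are not independent of each other.

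The double mutant was also set against the sum of the hda9 and hos15 differences on the log2 scale, the value for losses that simply add. That sum corresponds to 577 FPKM for BCB, 42.1 for ASN1, 112 for SEN1 and 1703 for SAG21, against observed levels of 50.5, 4.6, 23.3 and 484. The departures were -3.49 for BCB, -2.94 for ASN1, -2.21 for SEN1 and -1.81 for SAG21, and each stayed past 2-fold after sequence adjustment. These 4 of the 9 members were 2-fold below the sum, as were 3.52% of all rows, while 3.93% were above it and 7.45% were off it either way. NYC1 lay the other way, at 0.74 above a sum that would put it at 61.6 FPKM against 104 observed. DIN10 lay at -0.95, and ORE1, PAO and NYE1 between -0.25 and -0.10. All terms of the sum share the Col column, and its error, which is unknown, enters each.

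**Figure D3:**
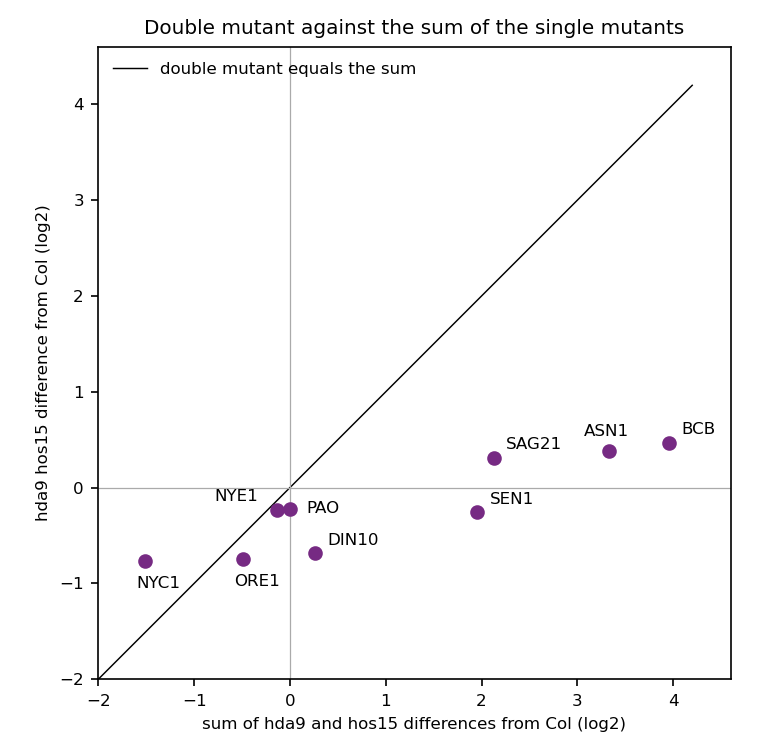
Difference of the double mutant from Col (vertical axis, log2) against the sum of the hda9 and hos15 differences (horizontal axis, log2) for the 9 genes, 1 point each, with the line on which both are equal. BCB, ASN1, SAG21 and SEN1 lie at sums of 1.96 to 3.96 but at -0.25 to 0.47 in the double mutant, far below the line.

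Both ASN1 and BCB were higher in hda9 and hos15 and then lower in the double mutant than in hda9. Of all rows, 170 were higher in both single mutants (0.899%), and 90 of these were also 2-fold lower in the double mutant than in hda9 (0.476%). The nearest profiles among 8202 kept rows with a gene symbol were found by the distance between log2 values over the 5 columns, each centred on its own mean. For BCB they were CYP81D8, a cytochrome P450 gene, at 7.68 FPKM in Col, then 32.2 (hda9), 18.6 (hos15), 21.6 (pwr) and 8.71 (double), and CAF1a, a deadenylase gene (distances 0.36 and 0.37). For ASN1 they were THA1, which encodes threonine aldolase, and TET8, a tetraspanin gene (0.21 and 0.21). For SEN1 they were CBP60G, a regulator of salicylic acid synthesis, and ACS6, an ethylene synthesis gene (0.04 and 0.11). For SAG21 they were IDL3 and the oxophytodienoate reductase gene OPR1 (0.16 and 0.16). Over 5 values such distances are only a description.

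Other genes of the process were counted from lists. For every list below, the share of all rows called either way was 6.48% (hda9), 3.71% (hos15), 9.48% (pwr) and 5.39% (double). Of 10 other chlorophyll breakdown genes, all kept, 0 were called in any mutant, with medians of 0.07 (hda9), -0.03 (hos15), 0.04 (pwr) and -0.19 (double). At these shares a count of 0 in 10 genes says little. PPH, which removes the phytol tail, stood at 37.4 FPKM in hda9 against 27.9 in Col, and the row holding NOL, the chlorophyll b reductase that partners NYC1, joined with AT5G04895, at 20.3 against 22.9. Among 13 kept chlorophyll synthesis genes, of 14 listed, 1 was called lower in each of the 4 mutants and 0 higher, and it was HEMA1 each time. HEMA1, the glutamyl-tRNA reductase at the entry to the pathway, stood at 49.9 FPKM in wild-type Col and, in the mutants, at 18.3 (hda9), 20.7 (hos15), 13.7 (pwr) and 17.0 (double). It stayed past 2-fold in all 4 after sequence adjustment, and 1.89% of all rows were likewise lower in all 4 mutants. The list median was -0.24 (hda9), -0.32 (hos15), -0.21 (pwr) and -0.05 (double).

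Of 21 other dark and sugar-starvation genes, 19 were kept, and the genes called higher numbered 2 (hda9), 1 (hos15), 1 (pwr) and 0 (double), with 1 lower in pwr. bZIP53 had no row. DIN2 did not pass the filter, at 1.63 FPKM in Col and 0.638 (hda9), 0.788 (hos15), 0.412 (pwr) and 0.491 (double). BCAT2, a branched-chain amino acid aminotransferase, stood at 2.98 FPKM in wild-type Col and, in the mutants, at 15.8 (hda9), 11.0 (hos15), 7.52 (pwr) and 6.43 (double). Its order of columns was that of ASN1, and it overlaps an opposite-strand gene, AT1G10090. DIN11 stood at 6.61 FPKM in wild-type Col, against 16.8 (hda9) and 4.14 (double), and bZIP63, a regulator under the starvation kinase SnRK1, at 43.8 in Col and 20.0 in pwr, a difference of -1.10 that became -0.54 after sequence adjustment. BCAT2 in the double mutant differed from Col by 0.90, and by 1.03, past 2-fold, after adjustment. The list medians were 0.24 (hda9), 0.16 (hos15), -0.08 (pwr) and -0.19 (double). The kinase subunit genes KIN10 and KIN11 were under 2-fold in every mutant.

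Most regulators of senescence were not called, and the same held for most rows. The share of all rows called either way was 6.48% (hda9), 3.71% (hos15), 9.48% (pwr) and 5.39% (double). Of 13 kept positive regulators, of 17 listed, 1 was higher in hda9, 0 were called in hos15, 1 was lower in pwr and 2 were lower in the double mutant. The gene higher in hda9 was the NAC gene ANAC055, at 5.10 FPKM against 1.93 in Col. WRKY53, which overlaps the opposite-strand gene AT4G23800, was lower in pwr and the double mutant, at 2.86 and 3.22 FPKM against 8.77, and PIF5, which promotes dark-induced senescence, was lower in the double mutant, at 12.1 against 27.5. NAP, another NAC regulator, was at most 0.264 FPKM and did not pass the filter. Of 6 negative regulators, WRKY70 was lower in pwr, at 2.35 FPKM, and in the double mutant, at 2.08, against 7.71 in Col, and 0 were higher. Medians of the positive list were -0.08, -0.00, -0.23 and -0.27, and of the negative list -0.25, -0.01, -0.25 and -0.13, in the order hda9, hos15, pwr, double. The calls on ANAC055, WRKY53, PIF5 and WRKY70 all held after sequence adjustment. Adjustment moved the positive list's medians to -0.01, 0.05, -0.01 and -0.19, and turned the sign of the negative list's medians, to 0.04, 0.08, 0.27 and 0.07. It also put 1 gene listed as a negative regulator, NPX1, past 2-fold higher in hos15 (0.27 to 1.34), pwr (-0.54 to 1.16) and the double mutant (0.30 to 1.43). The NPX1 transcript holds 59.5% purine, more than that of any member. These calls exist only after adjustment, and how it behaves at such a purine content was not tested.

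Genes known as senescence markers were also counted. SAG12, a cysteine protease gene expressed in old yellowing leaves, was listed at 0 in all 5 columns. Of 10 kept senescence-associated genes, of 12 listed, SAG20 was higher in hda9 (246 FPKM) and pwr (226) than in Col (108), and SAUR36 in hda9 (12.8 against 5.86). These differences were under 2-fold after sequence adjustment. SAG101, a lipase-like defence gene, was lower in the double mutant, at 3.31 FPKM against 8.02, and at -0.84 after adjustment. Among 24 autophagy genes, ATG8b was higher in hda9, at 58.8 FPKM against 26.4, and ATG18a in the double mutant, at 44.7 against 21.1, and neither call held after adjustment. The autophagy list medians were 0.18, 0.17, 0.20 and 0.15 in the order hda9, hos15, pwr, double.

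**Figure D4:**
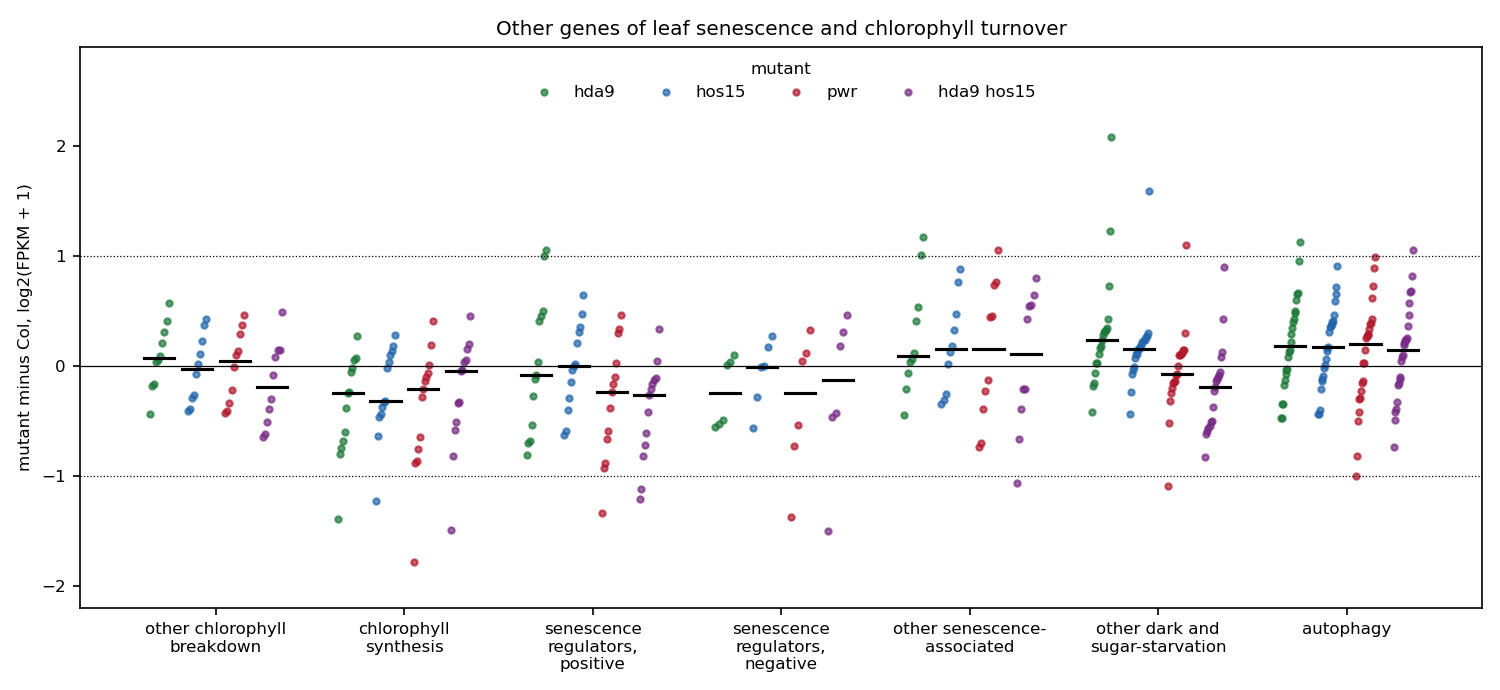
Difference from Col in log2(FPKM + 1) (vertical axis) of the kept genes of 7 lists (horizontal axis), 1 point per gene coloured by mutant, with a black bar at each median and dotted lines at 2-fold. Most points lie inside the dotted lines. HEMA1 is the lowest chlorophyll synthesis gene in all 4 mutants, and BCAT2 the highest starvation gene, at 2.08 in hda9.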

How the data were processed

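RNA from whole seedlings went into strand-preserving mRNA libraries, per the labels' protocols. The submitters' processing notes list TopHat2, Cufflinks, Cuffdiff and TAIR10, with no versions, settings or strand use. The deposited FPKM were computed by the authors, 1 value per gene and genotype. Mutant columns name both libraries, and the column named WT was taken as Col. FPKM keep no counts, so depth and counting error are unknown.

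Rows with at least 1 FPKM in at least 2 columns were compared as log2(FPKM + 1), with Python 3.11.15 and pandas 2.3.3. A fixed 2-fold rule stands in for a test. Sequence-adjusted values are residuals on cubic splines (5 knots) of transcript purine content, highest purine content in 100 nt, log2 length and GC content, over 18079 protein-coding rows of 1 locus and at least 300 nt, with scikit-learn 1.9.0, tested on simulated data. The simulation planted changes well past 2-fold in genes above the median level, with a purine trend that the splines include. It does not show how values near 2-fold behave. The joined row of PAO has no sequence-adjusted value. Genes named beside the members were the targeted genes, up to 3 called genes per list and mutant, and the 2 nearest profiles of each member with a range of at least 1. PPH, NOL, KIN10, KIN11, DIN2, bZIP53, NAP, SAG12, NPX1 and the close relatives were named outside that rule, after their values were seen. Members, lists and rules were chosen with earlier results of these data known. Annotation and sequences came from RefSeq on TAIR10.1.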

Additional observations from a re-analysis of the deposited data

Results flagged for a closer look

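For SEN1, ASN1 and BCB the hos15 mutation went with a higher level where HDA9 was intact and with a lower level where HDA9 was mutated. SEN1 was 0.92 above Col in hos15 and -1.30 from hda9 in the double mutant, a departure of -2.21 from the sum of the single mutants on the log2 scale. For ASN1 these values were 1.61, -1.34 and -2.94, and for BCB 1.66, -1.83 and -3.49. SAG21 turned in the same way, at 0.83, -0.98 and -1.81, with neither of the first 2 values past 2-fold. DIN10 (0.08 and -0.87) and NYE1 (0.01 and -0.09) also turned from higher to lower, and NYC1 turned the other way (-0.66 and 0.09). The share of all rows with such a turn was not counted. Each rests on 1 value per genotype, and the difference between the 2 backgrounds was not tested.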

How the results depend on the processing

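No paired analysis was possible because the deposited table gives 1 value per genotype, and for the same reason no library could be left out. No called member difference changed sign in any comparison under any of the settings run. The number of members called in pwr against Col was 2 with a pseudocount of 0.5, 2 with one of 0.1, 2 with median-ratio scaling and 3 with quantile normalization, instead of 1. In the double mutant against Col it was 1 with a pseudocount of 0.1 and 1 with quantile normalization, instead of 0, and both calls were lower. Of the 3 called in pwr under quantile normalization, 1 (NYC1) was lower. Under quantile normalization SEN1 and SAG21 in hda9 stood at 0.99 and 0.99, under 2-fold. Quantile normalization moved the median of all rows in pwr from -0.09 to 0.05.

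With a 1.5-fold threshold the members called were 5 (hos15), 4 (pwr) and 3 (double) against Col, 5 in the double mutant against hda9, 1 in hda9 against hos15, 3 in hda9 against pwr and 2 in hos15 against pwr. With a 3-fold threshold they were 2 in hda9 against Col, and 1, 0 and 0 in the double mutant against hda9, hos15 and pwr. The rest of the member counts stayed within 1.5 times. These counts take both directions together. In hda9 against Col, quantile normalization gave 2 higher and 1 lower (NYC1), instead of 4 higher and 0 lower. At 1.5-fold against Col, the calls were 4 higher and 1 lower (hos15), 3 higher and 1 lower (pwr) and 0 higher and 3 lower (double).

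Counts over all rows follow in the order hda9, hos15, pwr and double mutant against Col, double mutant against hda9, hos15 and pwr, hda9 against hos15, hda9 against pwr, hos15 against pwr, and departure from the sum. As reported they were 1226, 701, 1793, 1020, 350, 244, 226, 140, 175, 227 and 1409. At 1.5-fold they were 3812, 2533, 5113, 3859, 1079, 873, 1102, 474, 750, 1455 and 3842. At 3-fold they were 336, 188, 557, 208, 112, 82, 70, 70, 63, 62 and 513. Those counts are of 18912 rows, but a mean FPKM of at least 5 leaves 13512 and sequence adjustment 18079, so the next counts are not of equal totals. With a mean FPKM of at least 5 they were 687, 367, 1050, 600, 225, 168, 134, 89, 106, 151 and 803, and with sequence adjustment 546, 319, 675, 364, 265, 154, 94, 56, 76, 61 and 939. The same protein-coding rows without adjustment, a setting added after the data were seen, gave 1113, 602, 1665, 900, 276, 165, 130, 56, 95, 133 and 1274. With a pseudocount of 0.1 they were 1800, 1107, 2590, 1638, 580, 435, 605, 262, 390, 659 and 2047. With one of 0.5 the double mutant against pwr gave 371 and hos15 against pwr 389. The cause was not tested.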

Other observations

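Close relatives of the members were looked at beside them, and 0 of 8 kept relatives were called in any mutant against Col. Only 6.48% (hda9), 3.71% (hos15), 9.48% (pwr) and 5.39% (double) of all rows were called either way, so 0 of 8 says little about the relatives. ASN2, the second asparagine synthetase, stood at 150 FPKM in wild-type Col and, in the mutants, at 196 (hda9), 182 (hos15), 191 (pwr) and 190 (double), and ASN3 at 17.0, 13.6, 12.2, 13.3 and 13.9. ASN2 was far more abundant than ASN1 in every column. Of the raffinose synthase family, SIP2 stood at 135 FPKM in wild-type Col, against 183 (hda9) and 134 (double), and RS5 at 12.9, 15.4 and 19.3. Among relatives of SAG21, LEA3 (AT1G02820) stood at 18.3 FPKM in hda9, 15.2 in the double mutant and 10.05 in Col, and DI21 at 86.8, 91.8 and 89.4.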
